A study of Mus musculus with 12 samples.

Results

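LGR5+ cells of mouse liver cancer organoids were compared after treatment with 5-fluorouracil (5-FU) and without treatment, using 3 libraries of each, which are 6 of the 12 libraries of the study. The other 6 libraries hold the LGR5- cells of the same 2 conditions. The organoids came from tumors of C57BL/6 *Lgr5–DTR–GFP* mice, in which the *Lgr5* promoter drives green fluorescent protein and the diphtheria toxin receptor in every group, controls included. According to the study's methods, tumors had been induced with diethylnitrosamine, a liver carcinogen, and live cells negative for the leukocyte antigen CD45 were sorted on GFP. The dose and duration of 5-FU for these libraries are not given in the sources used here, nor do the labels say whether the 3 libraries of a group came from separate cultures or animals, so that *P* values measure the spread between these libraries, which may be technical. Cells were sorted after treatment, so a change of RNA within cells and a change of which cells were GFP-positive cannot be told apart. Genes were described when they were well measured, that is, with a mean of at least 10 CPM (reads of the gene per 1000000 reads of the library, after scaling) in either LGR5+ group. This held for 9517 of the 16157 genes tested and the 47069 genes in the table. The genes nearest to this limit were *Top1mt* just inside it, with means of 9.60 to 10.01 CPM, and *P3h1* just outside it, with means of 8.73 to 9.9997 CPM.

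5-FU is a pyrimidine analog whose metabolites block thymidylate synthase and are built into RNA and DNA. Damaged DNA stabilizes the transcription factor p53, which turns on inhibitors of the cell cycle and genes of apoptosis. Several epithelia that are injured or stop dividing also switch on keratins and barrier proteins that are typical of stratified, squamous epithelium such as skin.

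Counted reads ranged from 15831066 to 17645458 in untreated and from 17756135 to 19308778 in 5-FU-treated LGR5+ libraries, where 3 reads, the limit that a count of 0 allows, equal 0.165 to 0.184 CPM. The mitochondrial share of reads was 1.49 to 2.08% without and 1.47 to 1.84% with 5-FU (two-sided exact permutation test, *P* = 0.3, where 0.1 is the smallest *P* that 3 against 3 libraries allow). The RNA was amplified by PCR without molecular identifiers, so limits and intervals cover counting error only. *Lgr5* itself had 27.5, 23.3 and 26.2 CPM in untreated and 26.98, 26.8 and 27.2 CPM in 5-FU-treated LGR5+ libraries (log2FC 0.07, SE 0.23, adjusted *P* = 0.876), beside 28.8 ± 6.63 CPM in untreated and 25.1 ± 9.50 CPM in 5-FU-treated LGR5- cells (SD, n = 3). *Lgr5*, whose promoter drives the GFP used for sorting, did not pass the test, and its treated values lay within the range of the untreated. In both conditions all LGR5+ values also lay within 1 SD of the LGR5- mean, so *Lgr5* RNA did not set the sorted populations apart. Why this was so was not tested. The labelled tissue was checked against cell type markers. Of 10 hepatocyte markers, 4 had no read in any LGR5+ library, and all 10 together summed to 1.43 to 1.79 CPM in untreated and 0.825 to 2.64 CPM in treated libraries, with *Alb* (albumin) at 0.869 ± 0.371 and 0.944 ± 0.817 CPM. Defining hepatocyte transcripts were thus absent or near 0. Of 8 cholangiocyte markers, 6 were well measured, *Krt19*, *Krt7*, *Epcam* and *Sox9* among them, and 2 were too low to be tested.

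All 9 alveolar type 2 markers, genes of the surfactant-producing cells of the lung, were also well measured in LGR5+ cells. *Sftpc*, which encodes surfactant protein C, had 15665, 5764 and 4891 CPM in untreated and 2619, 4637 and 5599 CPM in treated libraries (log2FC -1.03, adjusted *P* = 0.228). Untreated replicate 1 was the highest, and the groups overlap in the other libraries. *Nkx2-1*, a transcription factor of lung and thyroid, had 47.6, 58.1 and 56.9 CPM before and 54.9, 76.3 and 58.5 CPM after (log2FC 0.22, adjusted *P* = 0.425). *Sftpd*, the collectin surfactant protein D, went from 73.3, 64.2 and 37.2 to 313, 348 and 465 CPM and was called higher (log2FC 2.69, SE 0.28, adjusted *P* = 2.04e-05), as were *Lamp3* and *Slc34a2*, of which *Lamp3* was not called without untreated replicate 3 nor *Slc34a2* without 5-FU replicate 3. Over the list, the summed level was 5052 to 15896 CPM in untreated and 3129 to 6276 CPM in 5-FU-treated libraries, which is mostly *Sftpc*. Where these transcripts came from was not tested. Summed leukocyte, endothelial and smooth muscle markers reached at most 12.03 CPM per list in any LGR5+ library, and fibroblast markers, mostly *Dcn*, 48.3 to 50.2 CPM in untreated and 26.2 to 42.8 CPM in treated libraries.

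In LGR5+ cells, 1162 well-measured genes were higher and 758 lower after 5-FU at an adjusted *P* under 0.05 (edgeR quasi-likelihood test), which is 12.2% and 7.96% of the 9517, or 20.2% in either direction. Among all 16157 genes tested, 9.66% were higher and 6.37% lower. The thresholds of the study, an unadjusted *P* under 0.05 and a log2 fold change beyond 1.5, gave 322 well-measured genes higher (3.38%) and 159 lower (1.67%). Of the well-measured genes called, 612 rose and 433 fell by more than 2-fold, and 75 rose but 2 fell by more than 8-fold. Among those with at least 10 CPM in both groups, 367 rose and 274 fell by more than 2-fold, and 14 rose and 0 fell by more than 8-fold. Some genes were well measured through 1 group: of the 538 genes that reached 10 CPM after 5-FU alone, 307 were higher, and of the 514 genes at that level in untreated cells alone, 201 were lower. Among the 8465 genes with at least 10 CPM in both groups, 855 (10.1%) were higher and 557 (6.58%) were lower (16.7% together). The limit favors differences in genes that reached it through 1 group alone. For each gene list with calls, the count and median are therefore also given for its members at that level in both groups. This is written in short as in both groups, and is left out where every well-measured member reached that level in both. These counts are read against the shares of 10.1% and 6.58%. Over all well-measured genes, the median log2 fold change (log2FC, 5-FU over untreated) was 0.03. The count of lower genes depended on single libraries: it was 303 without 5-FU replicate 2, 290 without 5-FU replicate 3, 501 without untreated replicate 2 and 426 without untreated replicate 3. The count of higher genes was 756 without 5-FU replicate 3. The 2 LGR5- libraries numbered 3, which had a mitochondrial share of 6.93% and 6.44%, entered the shared estimate of the spread, and without them 1812 genes were higher and 1407 lower.

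**Figure D1:**
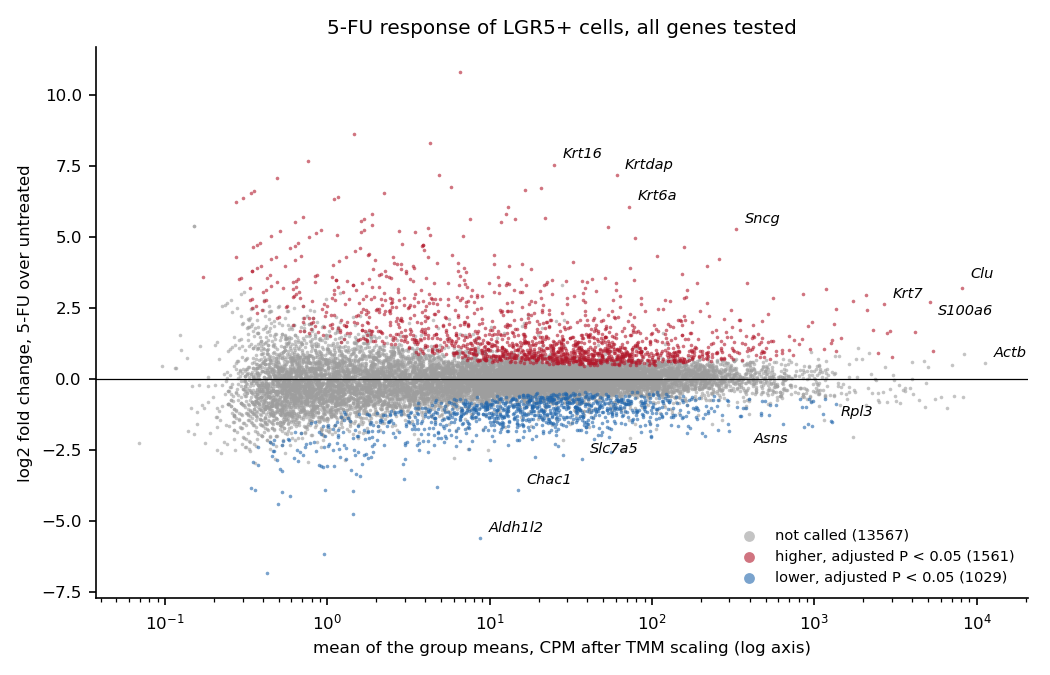
Each of the 16157 genes tested, by its mean level in LGR5+ cells (mean of both group means, CPM on a log axis) and its log2FC of 5-FU-treated over untreated cells. The 1561 genes that were higher (red) reach larger changes than the 1029 that were lower (blue), and the topmost point is *Krt6b*, which had no untreated read.

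Among the called genes, *Clu* rose most and *Rpl3* fell most by the size of the change in CPM. *Clu* (ENSMUSG00000022037), encoding the secreted chaperone clusterin, had 1740.3, 1786 and 1296 CPM in the untreated and 12857, 13195 and 18182 CPM in the treated libraries (log2FC 3.20, SE 0.34, adjusted *P* = 2.10e-05). All treated libraries lay far above all untreated ones. Next came *S100a6* (ENSMUSG00000001025), a calcium-binding protein, with 1852, 1161 and 1099 CPM before and 6076, 8213 and 12477 CPM after (log2FC 2.70, SE 0.41, adjusted *P* = 0.000465). Its 5-FU replicate 1 was the lowest of the treated and still above every untreated library. In the other direction, *Rpl3* (ENSMUSG00000060036), a protein of the large ribosomal subunit, had 1806, 2271 and 1695 CPM without and 953, 457 and 577 CPM with 5-FU (log2FC -1.54, SE 0.33, adjusted *P* = 0.00534). It was followed by the histone variant gene *H2afz*, the tubulin gene *Tuba1b* and the asparagine synthetase gene *Asns*, whose means went from 1869 to 667, from 1476 to 464 and from 1374 to 455 CPM. The calls of *Tuba1b* and *Asns* rest on single libraries, since *Asns* was not called without 5-FU replicate 2, nor *Tuba1b* without 5-FU replicate 2 or 3 or untreated replicate 1 or 3. The groups did not overlap in any of these genes, beside 27.1% of all well-measured genes whose groups did not overlap in the upward and 21.1% in the downward direction.

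Most keratin genes, which encode the intermediate filament proteins of epithelia, rose. Of the 10 with at least 10 CPM in both groups, 8 rose and 0 fell (median log2FC 2.79), against 10.1% of all genes at that level that rose. All 9 other well-measured keratin genes reached 10 CPM after 5-FU alone and rose, which the limit favors, and with them 17 of 19 rose (median 4.11), against 12.2%. Over the 27 keratin genes tested, the median was 3.38. Keratins of simple epithelium were already abundant and rose further. *Krt19* (ENSMUSG00000020911) had 379, 493 and 564 CPM in untreated and 2833, 3753 and 4482 CPM in treated libraries (log2FC 2.95, SE 0.31, adjusted *P* = 2.05e-05). The same held for *Krt7*, from 717, 767 and 747 to 3288, 4902 and 5679 CPM (log2FC 2.64, SE 0.34, adjusted *P* = 0.000127), and for the partners *Krt8* and *Krt18*, with means going from 666 to 3537 and from 1389 to 4209.8 CPM. In each of the 4 genes the groups were apart. Keratins of injured epithelium were low before treatment. *Krt6a* (ENSMUSG00000058354), induced in wounded skin, had 0.577, 3.38 and 2.45 CPM in untreated and 79.5, 175 and 174 CPM in treated libraries (log2FC 6.07, SE 0.53, adjusted *P* = 8.43e-06). Its close relative *Krt6b* (ENSMUSG00000023041) had 0 reads in all untreated libraries and 162, 287 and 251 reads after 5-FU, which is at least 73.7-fold higher against 3 reads per library. *Krt16*, the partner of these keratins, held 2, 6 and 5 reads before and 480, 1227 and 933 after. With *Krt6b* at its bound, the median of the keratins stayed at 4.11. The basal keratins *Krt5* and *Krt14* went from 33.01 ± 17.1 and 26.7 ± 11.8 CPM to 344 ± 87.1 and 493 ± 148 CPM (3.38 and 4.21 on the log2 scale), while *Trp63*, which encodes the basal transcription factor p63, had 5.14 ± 2.61 and 6.35 ± 1.05 CPM (log2FC 0.31, adjusted *P* = 0.708). *Krt6a* and *Krt6b* are near-identical in parts, so the split of reads between them is uncertain. Between these lie *Krt15* and *Krt17*, of basal and appendage cells, with 1.15, 6.27 and 7.17 and 6.87, 15.3 and 13.7 CPM before and 54.6, 222 and 179.8 and 175, 344 and 386 CPM after, and the mucosal keratins *Krt4* and *Krt13*, which rose by 4.11 and 5.04 on the log2 scale. *Krt10*, a keratin of differentiated skin, did not pass the test (means 17.3 to 17.8 CPM, log2FC 0.04, adjusted *P* = 0.956). Squamous markers as a whole summed to 31.2 to 97.6 CPM in untreated and 721 to 1266 CPM in 5-FU-treated libraries.

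Of 28 well-measured genes of desmosomes and the cornified envelope, the cell contacts and the protein shell of squamous cells, 22 rose and 0 fell (median log2FC 2.69), and 12 of these rises were of genes that reached 10 CPM after 5-FU alone. Of the 15 in both groups, 10 rose and 0 fell (median 1.39), and of the 18 members with at least 10 reads in every library 13 rose (median 1.48). *Perp* (ENSMUSG00000019851), a desmosomal membrane protein and p53 target, had 61.03, 77.1 and 63.1 CPM in untreated and 557, 684 and 872 CPM in treated libraries (log2FC 3.39, SE 0.24, adjusted *P* = 1.69e-06). *Krtdap* (ENSMUSG00000074199), made by differentiating keratinocytes, went from 0.577, 1.11 and 0.777 to 66.3, 131 and 163 CPM (log2FC 7.19, SE 0.65, adjusted *P* = 1.30e-05), and its neighbor *Dmkn*, the secreted dermokine, from 9.87, 17.3 and 11.4 to 129.6, 135 and 162 CPM (log2FC 3.47, SE 0.27, adjusted *P* = 2.33e-06). In both genes the groups were far apart. *Tgm1*, the transglutaminase that crosslinks the envelope, had 13.1, 9.59 and 8.96 CPM before and 83.9, 114 and 130.1 CPM after (log2FC 3.37, SE 0.29, adjusted *P* = 4.45e-06), and *Ivl* (involucrin), one of its substrates, had 1.56, 5.47 and 4.06 CPM before and 27.9, 27.5 and 16.1 CPM after (log2FC 2.69, SE 0.52, adjusted *P* = 0.00282). The envelope precursors *Sprr1b* and *BC100530*, a stefin, and the surface protein gene *Ly6g6c* also stood among the 15 largest rises, with log2FC of 5.63, 5.66 and 6.06. *Sprr2a3*, an envelope protein gene and the member with most reads, had 5879.7 ± 756 CPM before and 8245 ± 1655 CPM after (log2FC 0.49, adjusted *P* = 0.21). *Sprr2a3* and its sister genes share most of their sequence, so their reads may be split among copies.

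The bases before the RefSeq start of *Dmkn* and *Krtdap* are shown because these neighbors on chromosome 7 rose together and both hold the letters TGANTCA of the AP-1 site, bound by JUN and FOS proteins, in capitals. Of all 32851 promoters in the RefSeq table (GRCm38.p6), 6.75% hold these letters on either strand within the 250 bases before the start. In the part of the genome searched for examples, 6 well-measured keratin, desmosome and envelope genes that rose hold them. Members elsewhere were not counted, so 6 is not a count over the whole of these lists. Under 80% of the genes of these 2 lists matched a promoter, so no share is given for them. The stretches are on the plus strand at chr7:30763506-30763755 and chr7:30787655-30787904, and a match of letters is a description, not a bound site.
Dmkn: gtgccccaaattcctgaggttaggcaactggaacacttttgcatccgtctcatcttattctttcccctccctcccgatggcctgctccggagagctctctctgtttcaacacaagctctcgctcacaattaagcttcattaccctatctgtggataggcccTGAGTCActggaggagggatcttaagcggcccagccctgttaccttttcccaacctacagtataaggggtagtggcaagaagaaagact
Krtdap: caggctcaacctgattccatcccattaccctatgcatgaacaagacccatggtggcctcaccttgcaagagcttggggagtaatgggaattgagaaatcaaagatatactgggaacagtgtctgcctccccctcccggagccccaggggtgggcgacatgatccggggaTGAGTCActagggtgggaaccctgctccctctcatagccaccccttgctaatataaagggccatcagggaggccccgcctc

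Lists of other epithelial contacts held well-measured members that rose and none that fell, while 9 of 18 and 22 of 31 members of the first 2 lists were not called. Among hemidesmosome, integrin and basement membrane genes, 9 rose and 0 fell of 18 (median log2FC 0.69, or 7 higher and 0 lower of 16 in both groups, median 0.62), including *Lamb3*, which encodes a laminin chain, with a log2FC of 1.76. Over all 31 members of this list that were tested, the less abundant ones included, 13 rose and 3 fell. *Lama5*, with most reads of the list, had 210.2 ± 48.1 CPM before and 259 ± 13.5 CPM after (log2FC 0.30, adjusted *P* = 0.508). Of 31 tight and adherens junction genes, 9 rose and 0 fell (15 without the 2 LGR5- libraries numbered 3 and 14 on the 6 LGR5+ libraries alone, median 0.47, or 8 higher and 0 lower of 28 in both groups, median 0.44). The claudin genes *Cldn4*, *Cldn6* and *Cldn23* were among them, with means going from 51.4 to 198, from 133 to 369 and from 9.25 to 38.5 CPM. *Epcam*, an epithelial adhesion protein, had 1463, 1482 and 1466 CPM without and 1482, 1134 and 1406 CPM with 5-FU (log2FC -0.13, adjusted *P* = 0.745). Of 15 secretory genes, 9 rose and 0 fell (median 1.44, or 7 higher and 0 lower of 11 in both groups, median 1.44), among them *Ltf*, which encodes the iron-binding protein lactoferrin, from 14.7, 32.6 and 17.8 to 307, 227 and 313 CPM (log2FC 3.70, SE 0.37, adjusted *P* = 1.51e-05). *Slpi*, an antiprotease of mucosal fluids, and *Lcn2* (lipocalin 2) rose by 2.02 and 1.44 on the log2 scale. Without untreated replicate 3, 5 secretory genes rose, *Lcn2* not among them. *Scgb1a1*, a secretoglobin of airway club cells, had 0.115, 11.98 and 3.29 CPM before and 24.1, 64.9 and 63.02 CPM after and did not pass the test (log2FC 3.31, adjusted *P* = 0.0767).

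**Figure D2:**
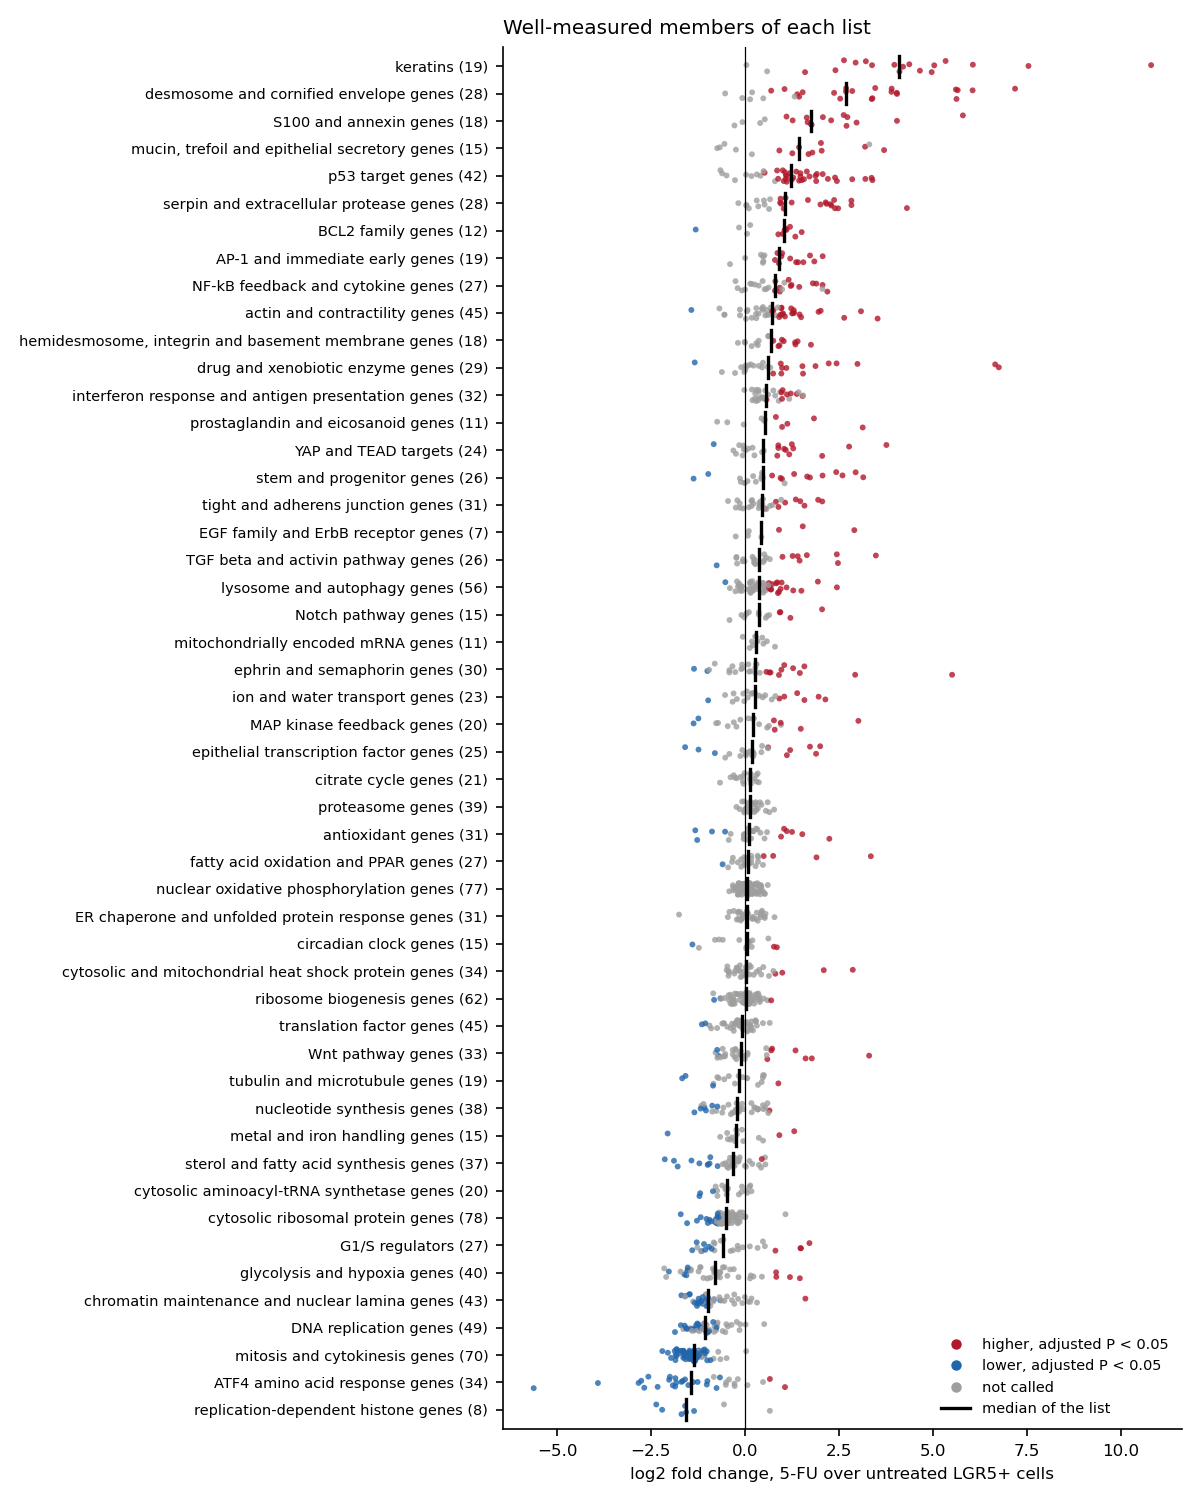
Log2FC of 5-FU-treated over untreated LGR5+ cells for the well-measured members of 50 lists, with their number in brackets and lists ordered by their median (black bar). Keratins (median 4.11) and desmosome and cornified envelope genes (2.69) lie highest, ATF4 amino acid response genes (-1.44) and replication-dependent histone genes (-1.58) lowest, and the rightmost point is *Krt6b*, whose fitted value rests on 0 untreated reads. Over members with at least 10 CPM in both groups these medians are 2.79, 1.39, -0.91 and -1.35, and the order of the lists differs.

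S100 proteins and annexins, which bind calcium and membranes, formed another large rise: 14 rose and 0 fell of 18 (median log2FC 1.77, or 11 higher and 0 lower of 14 in both groups, median 1.71). Their summed level was 6753 to 7339 CPM in untreated and 21803 to 36872 CPM in 5-FU-treated libraries. *Anxa1* had 507, 389 and 464 CPM before and 2283, 2735 and 3974 CPM after (log2FC 2.73, SE 0.30, adjusted *P* = 3.67e-05), and *Anxa3* went from 192 ± 3.28 to 1509 ± 440.4 CPM (SD, n = 3). *S100a9*, an inflammatory alarmin, was rare at 0.635, 0.492 and 0.179 CPM and reached 14.9, 26.2 and 33.03 CPM (log2FC 5.80, SE 1.13, adjusted *P* = 0.00616). *Anxa4* and *Anxa6* were not called, with log2FC of -0.28 and 0.40. Serpins and extracellular proteases had 18 higher and 0 lower members of 28 (median 1.06, or 13 higher and 0 lower of 23 in both groups, median 0.95). They included *Serpine2*, a thrombin inhibitor also called protease nexin 1, with 146, 136 and 126 CPM before and 896, 898 and 1115 CPM after (log2FC 2.83, SE 0.21, adjusted *P* = 1.93e-06), the metalloproteinase inhibitor gene *Timp3* and the serine protease gene *Prss22*, with log2FC of 2.28 and 2.40. *Mmp7* (matrilysin), a matrix protease of epithelia, had 7.85, 9.16 and 13.9 CPM before and 98.5, 220.0 and 295 CPM after (log2FC 4.31, SE 0.52, adjusted *P* = 0.0001), and *Plaur*, the urokinase receptor, rose by 2.30. *Spint2*, a protease inhibitor and the member with most reads, had log2FC 0.50, adjusted *P* = 0.147.

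Actin and contractility genes gave 21 higher and 1 lower member of 45 (median log2FC 0.71, or 17 higher and 0 lower of 40 in both groups, median 0.65). *Fhl2*, a LIM protein of actin-rich cells, had 4.504, 4.36 and 4.06 CPM in untreated and 39.97, 36.9 and 33.3 CPM in treated libraries (log2FC 3.09, SE 0.18, adjusted *P* = 4.99e-07). *Cald1* (caldesmon) and *Msn* (moesin) rose by 2.64 and 1.45 on the log2 scale. The exception was *Anln* (anillin), a scaffold of the dividing cell's furrow, which fell (log2FC -1.43, adjusted *P* = 0.0338), a call absent without 5-FU replicate 2 or 3 or untreated replicate 2 or 3. *Actb* had 12317, 8042 and 7256 CPM before and 13235, 11714 and 15278 CPM after, groups that overlap (log2FC 0.54, adjusted *P* = 0.459). The number of higher members was 12 without 5-FU replicate 3 and 13 without untreated replicate 3. Tubulin and microtubule genes gave 1 higher and 3 lower of 19 (median -0.17, and -0.35 without 5-FU replicate 1, beside 0.04 over all 25 members tested), and no member was called without 5-FU replicate 2 or without replicate 3. Without untreated replicate 1 or 3, 1 tubulin list gene fell, and 6 fell on the 6 LGR5+ libraries alone or without the 2 LGR5- libraries numbered 3. *Tuba1b* and *Tubb5* were 2 of those that fell, with log2FC of -1.67 and -1.58, while *Tubb4b*, with most reads, had log2FC -0.43, adjusted *P* = 0.498. Of 24 targets of YAP and TEAD, factors that answer to tension and cell contact, 11 rose and 1 fell (median 0.48, or 8 higher and 1 lower of 21 in both groups, median 0.25). The median of the 24 was 0.28 without untreated replicate 1 and 0.84 without untreated replicate 2. *Axl*, a receptor tyrosine kinase, had 0.693, 0.860 and 1.37 CPM before and 13.1, 11.499 and 15.4 CPM after (log2FC 3.76, SE 0.32, adjusted *P* = 4.58e-06). *Ccn1* and *Ccn2*, which encode matrix-associated growth regulators, went from 9.51 ± 2.66 and 16.7 ± 3.47 to 65.05 ± 16.7 and 69.5 ± 13.3 CPM, and *Tead2*, one of the TEAD factors, fell (log2FC -0.83, adjusted *P* = 0.00218).

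Genes of cell division fell. Of 70 genes of mitosis and cytokinesis, 60 fell and 0 rose (median log2FC -1.35, or 0 higher and 54 lower of 63 in both groups, median -1.34), against 7.96% of well-measured genes that fell and 6.58% of those in both groups. *Cdc25c* (ENSMUSG00000044201), the phosphatase that starts mitosis, had 35.2, 42.8 and 42.1 CPM in untreated and 14.8, 10.8 and 7.72 CPM in treated libraries (log2FC -1.85, SE 0.25, adjusted *P* = 0.000185). *Cenpa* (ENSMUSG00000029177), the histone of the centromere, had 231, 285 and 280.0 CPM before and 111, 64.4 and 63.4 CPM after (log2FC -1.73, SE 0.24, adjusted *P* = 0.000231). In both, replicate 1 was the highest of the treated libraries and lay below every untreated one. *Kif18a*, a kinesin of chromosome alignment, fell by 1.51 on the log2 scale. The member with most reads, *Ube2c*, a ubiquitin-conjugating enzyme of the anaphase, had means of 760.0 ± 108 and 402 ± 149.6 CPM (log2FC -0.92, adjusted *P* = 0.0421), and it was called without 5-FU replicate 1 but in none of the other left-out fits. *Mki67*, which encodes the proliferation antigen Ki-67, had 116, 194 and 164 CPM before and 63.97, 28.99 and 21.5 CPM after (log2FC -2.05, SE 0.47, adjusted *P* = 0.00874). In bulk RNA, fewer dividing cells and less RNA per dividing cell cannot be told apart. The number that fell was 33 without 5-FU replicate 2, 32 without 5-FU replicate 3 and 39 without untreated replicate 3.

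The bases before the RefSeq start are shown for 3 members of the mitosis list. Examples were sought in part of the genome only, and members elsewhere were not considered, whatever letters they hold. Of the members considered, these 3 had the smallest *P* among those that met 2 conditions. The RefSeq start had to lie within 10 bases of the gene's 5′ end in GENCODE. The promoter had to hold both TTTGAA, the cell cycle homology region bound by the repressor complex DREAM, and a CCAAT box, bound by NF-Y. Capitals mark these letters on either strand (TTCAAA and ATTGG on the other). TTTGAA stands before 21 of the 60 members that matched a promoter (35%) and in 16% of all 32851 promoters, and CCAAT before 40 (66.7%) and in 33.8%. Of 40 DNA replication genes with a promoter, 7.5% hold TTTGAA and 52.5% CCAAT. All 3 genes are on the minus strand, *Ect2* at chr3:27153879-27154128, *Ccnb2* at chr9:70421555-70421804 and *Top2a* at chr11:99024190-99024439. They were chosen after their values were seen.
Ect2: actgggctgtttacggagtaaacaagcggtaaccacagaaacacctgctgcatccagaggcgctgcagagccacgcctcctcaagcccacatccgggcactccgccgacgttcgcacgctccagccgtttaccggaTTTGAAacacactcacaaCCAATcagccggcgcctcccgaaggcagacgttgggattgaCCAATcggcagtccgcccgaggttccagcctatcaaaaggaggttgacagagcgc
Ccnb2: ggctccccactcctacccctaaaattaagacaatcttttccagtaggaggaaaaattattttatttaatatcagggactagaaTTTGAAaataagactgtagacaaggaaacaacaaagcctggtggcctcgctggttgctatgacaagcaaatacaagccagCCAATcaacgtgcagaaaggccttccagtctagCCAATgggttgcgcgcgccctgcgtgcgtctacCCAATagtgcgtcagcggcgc
Top2a: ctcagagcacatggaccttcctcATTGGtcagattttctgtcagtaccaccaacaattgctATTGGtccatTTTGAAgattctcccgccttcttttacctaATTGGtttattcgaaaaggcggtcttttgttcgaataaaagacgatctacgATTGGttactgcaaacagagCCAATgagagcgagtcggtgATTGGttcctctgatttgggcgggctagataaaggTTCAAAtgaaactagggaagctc

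*Ect2*, an activator of the contractile ring, had 37.9, 31.95 and 39.1 CPM without and 21.8, 16.6 and 12.2 CPM with 5-FU (log2FC -1.11, SE 0.20, adjusted *P* = 0.00183). The values of *Ccnb2*, a mitotic cyclin, were 202, 207 and 255 CPM before and 131, 66.4 and 54.3 CPM after (log2FC -1.40, SE 0.30, adjusted *P* = 0.00532). For *Top2a*, the topoisomerase that untangles chromosomes, they were 330.1, 441 and 426 CPM before and 198, 81.2 and 59.6 CPM after (log2FC -1.82, SE 0.45, adjusted *P* = 0.0129). Groups did not overlap, and 5-FU replicate 1 was the highest treated library in all 3 genes. *Top2a* was not called without 5-FU replicate 2 or 3.

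Among DNA replication genes, 22 fell and 0 rose of 49 (median log2FC -1.06, or 0 higher and 17 lower of 43 in both groups, median -1.02). Among them were *Gmnn*, an inhibitor of origin licensing, and *Ticrr*, an activator of origin firing, with means going from 165 to 65.7 and from 17.7 to 6.09 CPM. *Dbf4*, the activator of a replication kinase, fell too, with 64.9, 63.2 and 60.4 before and 31.2, 22.4 and 19.2 CPM after (log2FC -1.37, SE 0.20, adjusted *P* = 0.000302). The helicase subunit gene *Mcm6*, the member with most reads, had 333, 211 and 271 CPM before and 185, 81.6 and 72.1 CPM after and did not pass the test (log2FC -1.27, adjusted *P* = 0.0698). Without 5-FU replicate 1, 36 replication genes fell, and 7 fell without 5-FU replicate 2 and as many without replicate 3. Without untreated replicate 1 or 3 the number was 13. Of 43 genes of chromatin maintenance and the nuclear lamina, 20 fell, *Cbx5* (heterochromatin protein 1 alpha) and the histone variant *H2afv* included, and 1 rose (median -0.99, or 1 higher and 18 lower of 40 in both groups, median -0.98). That gene was *Lmna*, encoding lamin A, with 84.5, 97.02 and 77.2 CPM before and 261, 272 and 256 CPM after (log2FC 1.61, SE 0.28, adjusted *P* = 0.00121). The number that fell was 10 without 5-FU replicate 2 and 9 without replicate 3.

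Replication-dependent histone mRNAs mostly lack a poly(A) tail, on which the SMART-Seq v4 chemistry primes, and 8 of 65 genes were well measured. Of these, 6 fell and 0 rose (median log2FC -1.58, or 0 higher and 3 lower of 5 in both groups, median -1.35). *Hist1h2ae* had 48.3, 36.3 and 46.9 CPM before and 7.31, 7.92 and 10.4 CPM after (log2FC -2.36, SE 0.28, adjusted *P* = 6.70e-05). *Hist1h2bc* (log2FC 0.66) was the only well-measured member above 0. Histone genes of one type are near-identical, so the split of their reads is uncertain, and 3 fell without 5-FU replicate 2 or without replicate 3. Of 38 nucleotide synthesis genes, 6 fell and 1 rose (median -0.20, and -0.09 without untreated replicate 1, or 1 higher and 5 lower of 36 in both groups, median -0.17), and the number that fell was 0 without 5-FU replicate 2, 5-FU replicate 3 or untreated replicate 1, 2 without untreated replicate 2 and 1 without untreated replicate 3. *Aprt*, a salvage enzyme, was the rise (log2FC 0.65, adjusted *P* = 0.0412), and each left-out library removed its call. *Tyms*, the thymidylate synthase that 5-FU metabolites inhibit, had 225, 137 and 178 CPM in untreated and 123, 67.9 and 71.9 CPM in treated libraries (log2FC -1.04, SE 0.27, adjusted *P* = 0.0158). Thymidine kinase (*Tk1*) and dUTPase (*Dut*), which feed and guard the same thymidine pool, fell too, by 1.34 and 1.08 on the log2 scale. None of these 3 was called without 5-FU replicate 2, 5-FU replicate 3 or untreated replicate 1.

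**Figure D3:**
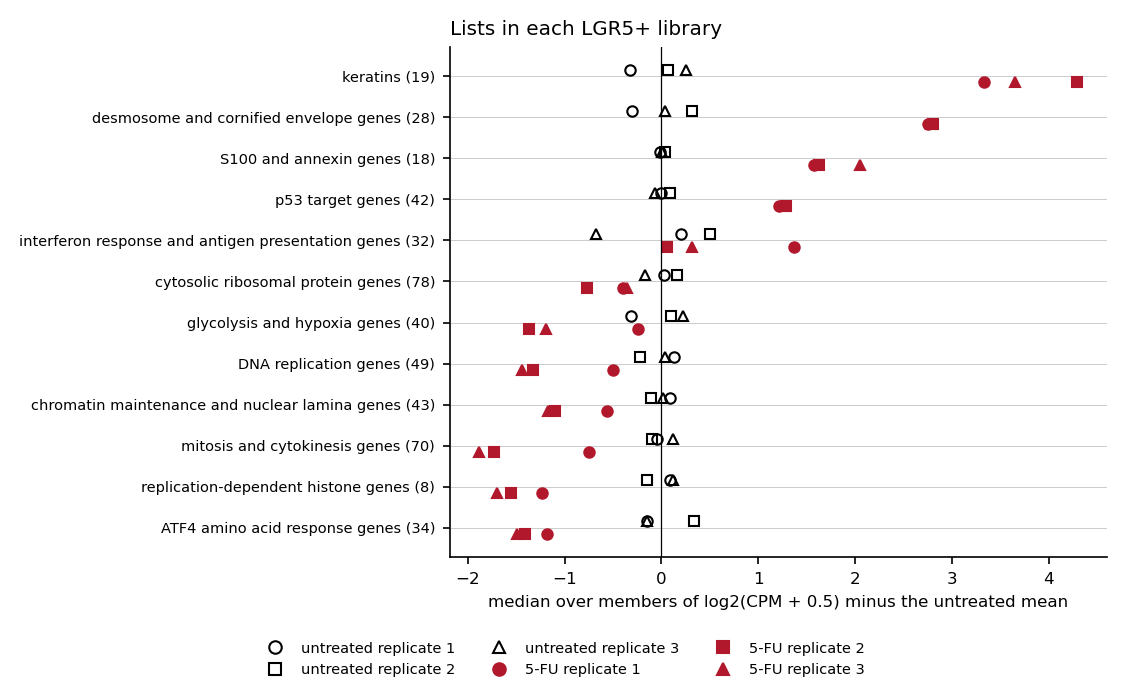
Position of each LGR5+ library for 12 lists: the median over well-measured members (number in brackets) of log2(CPM + 0.5) minus the mean of the untreated libraries. For mitosis genes 5-FU replicate 1 lies at -0.75 and replicates 2 and 3 at -1.72 and -1.88, while for p53 targets the 3 treated libraries lie between 1.22 and 1.29.

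The 3 treated libraries differed in how far they lay from the untreated ones. 5-FU replicate 1 was nearest to the untreated libraries in 83.9% of the 758 genes that fell and in 64.1% of the 1162 that rose. Its median distance from the untreated mean was -0.72 over the lower genes, against -1.20 and -1.26 in replicates 2 and 3, and 0.93 against 1.06 and 1.10 over the higher genes. For DNA replication genes it lay at -0.50, against -1.32 and -1.44. The 3 libraries were closer to each other in the ATF4 and p53 lists: ATF4 genes lay at -1.18, -1.41 and -1.49 and p53 targets at 1.22, 1.29 and 1.27 in replicates 1 to 3. Interferon response genes showed another order, with 1.37 in replicate 1 and 0.06 and 0.32 in the others. What sets replicate 1 apart was not tested.

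Of 27 regulators of the G1/S transition, 4 rose and 7 fell (median log2FC -0.57, or 3 higher and 5 lower of 20 in both groups, median -0.25). The CDK inhibitor *Cdkn1a* (p21), a p53 target, had 892, 1331 and 1009 CPM before and 3175, 3294 and 4153 CPM after (log2FC 1.72, SE 0.24, adjusted *P* = 0.000271). The D-type cyclin genes *Ccnd1* and *Ccnd2* rose to 558 ± 34.7 and 628 ± 41.8 CPM from 199 ± 24.1 and 226 ± 17.9 CPM. The fall included *Skp2*, which marks CDK inhibitors for destruction, *Tfdp2*, the partner of E2F factors, and *Cdkn2d* (p19), an inhibitor, with log2FC of -1.28, -1.06 and -1.16. Without 5-FU replicate 1, 11 fell, and without replicate 2 or 3 it was 4, while DESeq2, the 6 LGR5+ libraries alone and leaving out the 2 LGR5- libraries numbered 3 gave 11, 11 and 12, and the replicate block 13. Of 42 p53 targets, 32 rose and 0 fell (median 1.22, or 29 higher and 0 lower of 38 in both groups, median 1.18), against 12.2% of well-measured genes that rose. *Mdm2*, the ubiquitin ligase that restrains p53, had 68.8, 61.2 and 62.7 CPM before and 216, 251 and 258 CPM after (log2FC 1.91, SE 0.19, adjusted *P* = 1.70e-05). The death receptor gene *Fas* had 8.89, 7.13 and 6.57 CPM before and 56.9, 71.6 and 80.04 CPM after (log2FC 3.20, SE 0.24, adjusted *P* = 1.93e-06), and *Cgref1*, a growth regulator with calcium-binding motifs, rose by 3.37 on the log2 scale. Among 12 BCL2 family genes, 8 rose and 1 fell (median 1.03, or 7 higher and 1 lower of 11 in both groups, median 1.01). The rises covered genes that promote cell death, such as *Bbc3* (PUMA), *Bcl2l11* (BIM) and *Bax*, with log2FC of 1.51, 1.05 and 1.01, as well as the survival genes *Mcl1* and *Bcl2l1*, with log2FC of 1.11 and 1.09. *Bok* fell (log2FC -1.31, adjusted *P* = 0.00847), a call lost without 5-FU replicate 2 or 3.

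The deepest falls among well-measured genes, those of *Aldh1l2* and *Chac1*, belong to the amino acid program of ATF4, a transcription factor of amino acid shortage and the integrated stress response. Of 34 such genes, 23 fell and 2 rose (median log2FC -1.44, or 2 higher and 15 lower of 26 in both groups, median -0.91). *Aldh1l2* (ENSMUSG00000020256), a mitochondrial folate enzyme, had 5.83, 33.7 and 11.7 CPM in untreated and 0.618, 0.110 and 0.292 CPM in treated libraries (log2FC -5.62, SE 0.75, adjusted *P* = 0.00019), and *Chac1* (ENSMUSG00000027313), which degrades glutathione, 25.003, 43.1 and 15.5 CPM before and 1.80, 1.93 and 1.81 CPM after (log2FC -3.91, SE 0.52, adjusted *P* = 0.000193). The untreated libraries differed among themselves, replicate 2 being the highest, but none overlapped the treated. *Slc7a5*, the large neutral amino acid transporter, went from 62.1, 87.2 and 44.6 to 13.1, 7.48 and 6.66 CPM (log2FC -2.83, SE 0.34, adjusted *P* = 7.32e-05). In serine and one-carbon synthesis, *Psph* and *Mthfd2* fell to 18.6 ± 0.904 and 16.01 ± 2.47 CPM from 74.2 ± 22.5 and 95.01 ± 29.7 CPM, and *Phgdh*, the first step, fell by 1.26 on the log2 scale, a call absent without 5-FU replicate 2 or 3 or untreated replicate 1 or 2. *Asns*, the member with most reads, had 1351, 1631 and 1142 CPM before and 623, 309 and 434 CPM after (log2FC -1.59, SE 0.37, adjusted *P* = 0.00922). *Atf4* itself was called lower (log2FC -1.01, adjusted *P* = 0.00393), as was its target *Trib3*, a pseudokinase (log2FC -2.76, adjusted *P* = 0.0003). *Ddit3* (CHOP) and *Ppp1r15a* (GADD34), the stress genes most used as readouts of the unfolded protein response, had log2FC of -0.28 and 0.07 and were not called. The 2 that rose were *Sesn2*, also a p53 target, and *Cebpb* (1.07 and 0.66), and neither was called without 5-FU replicate 2, untreated replicate 1 or untreated replicate 3. The number that fell lay between 19 and 22 whichever library was left out.

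Of 78 cytosolic ribosomal protein genes, 14 fell and 0 rose (median log2FC -0.50, or 0 higher and 13 lower of 77 in both groups, median -0.50). Their summed level was 77260.5 to 99197 CPM in untreated and 51311 to 70832 CPM in 5-FU-treated libraries, groups that do not overlap. Besides *Rpl3*, *Rpl22l1*, a paralog of *Rpl22*, had 28.8, 25.3 and 25.3 CPM before and 9.28, 7.15 and 7.83 CPM after (log2FC -1.71, SE 0.31, adjusted *P* = 0.00155), and *Rpl12*, of the same large subunit, went from 511 ± 71.6 to 252 ± 57.02 CPM. *Rps2* and *Rps9*, of the small subunit, were among the 10 largest losses of CPM of called genes, with log2FC of -0.99 and -0.90. *Rpl12* and *Rps2* each lost their call in 2 of the alternative fits, and *Rps9* in 3. The number called ranged widely: 41 fell without the 2 LGR5- libraries numbered 3, 32 by DESeq2, 29 on the 6 LGR5+ libraries alone and 28 under scaling by library size alone, and 2 fell without 5-FU replicate 2, 4 without 5-FU replicate 3, 4 without untreated replicate 2, 8 without untreated replicate 1 and 9 without untreated replicate 3. These genes have many processed pseudogenes that can share their reads. Of 45 translation factors, *Eif4b* and *Pabpc4* fell (-1.05 and -1.15) and none rose (median -0.08), and neither was called without 5-FU replicate 2 or 3 or untreated replicate 2, nor *Eif4b* without untreated replicate 3. Of these factors 8 fell without the 2 LGR5- libraries numbered 3, 7 on the 6 LGR5+ libraries alone, 6 by DESeq2 and 4 under scaling by library size alone. Of 20 cytosolic aminoacyl-tRNA synthetase genes, *Cars*, *Lars* and *Yars* fell (-1.19, -1.21 and -0.85, median of the list -0.49), none of them without 5-FU replicate 3 and 1 without untreated replicate 2. In this list 12 fell on the 6 LGR5+ libraries alone, 11 without the 2 LGR5- libraries numbered 3 and 5 by DESeq2, under scaling by library size alone or with the replicate block. Of 62 ribosome biogenesis genes, 1 rose and 2 fell, *Npm1* (nucleophosmin) among them (log2FC -0.82, adjusted *P* = 0.036, called in the left-out fits where 5-FU replicate 1 was omitted and in no other), with a median of 0.02 that scaling by library size alone moved to -0.06 and leaving out untreated replicate 1 to 0.18. No member of this list was called in either direction without 5-FU replicate 3 or untreated replicate 3, while 2 rose and 6 fell without the 2 LGR5- libraries numbered 3 and 2 rose and 4 fell on the 6 LGR5+ libraries alone.

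The edgeR test called no gene in 5 lists of housekeeping systems. These were 31 genes of ER chaperones and the unfolded protein response, 39 of the proteasome, 77 nuclear genes of oxidative phosphorylation, 11 mitochondrially encoded mRNAs and 21 of the citrate cycle, with median log2FC of 0.05, 0.13, 0.06, 0.29 and 0.13. On scaling by library size alone, the medians of the ER and oxidative phosphorylation lists changed sign, to -0.03 and -0.03. Without untreated replicate 1 the ER and proteasome medians were 0.24 and 0.26, without 5-FU replicate 3 the oxidative phosphorylation and mitochondrial mRNA medians were -0.09 and 0.10, and without untreated replicate 2 the citrate cycle median was -0.06. At an unadjusted *P* under 0.05, 6, 3, 2, 0 and 2 of their genes passed, and DESeq2 called 2 ER and 1 proteasome gene higher and none of the other lists. Other edgeR fits called some members. On the 6 LGR5+ libraries alone, 3 ER, 3 proteasome, 1 oxidative phosphorylation and 1 mitochondrially encoded gene were higher and 1 citrate cycle gene was lower. Without the 2 LGR5- libraries numbered 3, the numbers higher were 3, 3, 2, 1 and 0 in the order above, and 1 ER, 1 oxidative phosphorylation and 2 citrate cycle genes were lower. Scaling by library size alone called 1 citrate cycle gene lower, the replicate block 2 proteasome genes higher, the filter of 10 reads in every library 1 ER and 1 proteasome gene higher, and leaving out 5-FU replicate 1 made 1 ER gene lower. *Atp5b*, a subunit of ATP synthase, had 2919.5 ± 647 CPM before and 3182 ± 480.2 CPM after (log2FC 0.12, adjusted *P* = 0.849). Among 34 cytosolic and mitochondrial heat shock protein genes, 4 rose and 0 fell (median 0.03, and -0.05 on scaling by library size alone), a share near the 12.2% of all well-measured genes that rose. The small ones *Cryab*, *Hspb1* and *Hspb8* were among the 4. *Cryab* (alpha B-crystallin) had 41.98, 36.1 and 39.4 CPM before and 209.9, 302 and 347 CPM after (log2FC 2.87, SE 0.30, adjusted *P* = 2.03e-05), and *Hspb1* 105 ± 15.8 and 450.2 ± 115 CPM. *Hsp90ab1*, with most reads of the list, had log2FC -0.43, adjusted *P* = 0.446.

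Of 56 lysosome and autophagy genes, 17 rose and 1 fell (median log2FC 0.37, or 16 higher and 1 lower of 54 in both groups, median 0.35). The protease genes *Ctsd* and *Ctsh* (cathepsins D and H) were the 2 with the smallest *P*. *Ctsd* had 425, 407 and 437 CPM before and 1715, 2372 and 2837 CPM after (log2FC 2.45, SE 0.29, adjusted *P* = 5.80e-05), and *Ctsh* had 692, 492 and 455 CPM before and 1350.0, 2069.9 and 2876 CPM after (log2FC 1.94, SE 0.30, adjusted *P* = 0.000577). The exception was *Glb1*, beta-galactosidase (log2FC -0.52, adjusted *P* = 0.0321), called only without 5-FU replicate 3 among the left-out fits. The number that rose was 26 without the 2 LGR5- libraries numbered 3, 11 without a filter, 8 without 5-FU replicate 2, without 5-FU replicate 3 or without untreated replicate 3, and 10 without untreated replicate 2.

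Glycolysis and hypoxia genes had a median log2FC of -0.81, yet 6 fell and 4 rose of 40 (5 and 3 of the 38 in both groups, median -0.81). Their count turned on single libraries: 19 fell without 5-FU replicate 1, 1 without 5-FU replicate 2 or 3, 2 without untreated replicate 2 or 3 and 4 without untreated replicate 1. *Slc2a3*, a glucose transporter, had 14.4, 24.6 and 27.2 CPM before and 9.11, 6.99 and 5.55 CPM after (log2FC -1.61, SE 0.34, adjusted *P* = 0.00493). *Ldha* (lactate dehydrogenase A), the member with most reads, had 7395, 7111 and 7542 CPM before and 7226, 2853 and 3901 CPM after (log2FC -0.66, adjusted *P* = 0.339), and 5-FU replicate 1 lay among the untreated values. The hypoxia-induced genes *Adm* (adrenomedullin), *Ndrg1* and *Vegfa* had log2FC of -2.15, -2.10 and -1.71 without passing the test. *Adm*, for example, had 30.03, 55.2 and 52.8 CPM before and 26.2, 1.93 and 2.98 CPM after (log2FC -2.15, adjusted *P* = 0.156), where 5-FU replicate 1 lay far above the other treated libraries and near untreated replicate 1. The rises were *Pdk4*, a brake on pyruvate oxidation, *Ldhb*, *P4ha2* and *Pfkfb4*, of which 2 were called without 5-FU replicate 2, untreated replicate 1 or untreated replicate 2 and under scaling by library size alone, and 1 without 5-FU replicate 3. *Pdk4* had 12.7, 12.8 and 9.74 CPM before and 25.6, 37.1 and 34.6 CPM after (log2FC 1.46, adjusted *P* = 0.000335). Of 37 sterol and fatty acid synthesis genes, 9 fell and 1 rose (median -0.32, and -0.21 and -0.50 without untreated replicates 1 and 2). *Tm7sf2*, a sterol reductase, had 40.8, 31.03 and 38.6 CPM before and 11.1, 8.91 and 11.9 CPM after (log2FC -1.79, SE 0.19, adjusted *P* = 2.33e-05), and *Elovl6*, a fatty acid elongase, fell by 1.89 on the log2 scale. The number that fell was 6 without 5-FU replicate 2 or 3. *Scd2*, a desaturase with most reads of the list, had log2FC -0.40, adjusted *P* = 0.167. *Elovl7* was called higher (log2FC 0.45, adjusted *P* = 0.0498), a call that each left-out library removed.

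Enzymes that handle drugs and foreign compounds gave 13 higher and 1 lower of 29 (median log2FC 0.61, or 9 higher and 1 lower of 25 in both groups, median 0.46). The carboxylesterase genes *Ces2e* and *Ces2g* were nearly silent before treatment: *Ces2e* held 7, 7 and 2 reads and *Ces2g* 3, 1 and 1 reads, against 417, 588 and 732 and 200, 167 and 241 reads after it. For *Ces2g* the ratio of CPM was 117 with a 95% counting interval of 49.2 to 356. *Ephx1*, epoxide hydrolase, was the member with most reads and had 332, 414 and 423 CPM before and 1162, 1397 and 1738 CPM after (log2FC 1.88, SE 0.23, adjusted *P* = 7.51e-05), and *Sult1a1*, a sulfotransferase, had 5.95, 6.45 and 7.17 CPM before and 31.3, 30.5 and 44.3 CPM after (log2FC 2.44, SE 0.22, adjusted *P* = 7.39e-06). *Aldh1a7* fell (log2FC -1.34, adjusted *P* = 0.0341), called only without 5-FU replicate 1 among the left-out fits. Antioxidant genes went both ways, 6 up and 4 down of 31 (median 0.12, 0.21 without untreated replicate 1 and 0.04 under scaling by library size alone, or 4 higher and 3 lower of 28 in both groups, median 0.11), with *Osgin1*, *Gpx3* and *Srxn1* up and *Prdx4*, *Tkt* and *Txnrd2* down. *Osgin1*, induced by oxidative stress, had 10.2, 25.4 and 19.9 CPM before and 72.6, 89.2 and 102 CPM after (log2FC 2.25, SE 0.29, adjusted *P* = 0.000127). The number that fell was 2 without 5-FU replicate 1 and 1 without 5-FU replicate 2, 5-FU replicate 3, untreated replicate 1 or untreated replicate 3. *Tfrc*, the receptor that takes up transferrin-bound iron, fell from 93.7, 88.7 and 79.3 to 33.95, 11.99 and 16.95 CPM (log2FC -2.06, SE 0.36, adjusted *P* = 0.00139), and the ferritin gene *Fth1* had log2FC -0.66, adjusted *P* = 0.149. In this list of 15 metal and iron genes, 2 rose and 1 fell (median -0.23, or 2 higher and 1 lower of 14 in both groups, median -0.24), shares near those of all well-measured genes, and 1 rose without 5-FU replicate 2 or 3 or untreated replicate 1 or 3. In fatty acid oxidation, 4 rose and 1 fell of 27 (median 0.09, or 3 higher and 1 lower of 26 in both groups, median 0.08), beside 12.2% and 7.96% of all well-measured genes. *Plin2*, a coat protein of lipid droplets, rose from 43.4 ± 4.96 to 162 ± 24.6 CPM and *Acaa1b*, a peroxisomal thiolase, from 2.34 ± 0.378 to 23.9 ± 3.92 CPM. The fall, *Acsl4*, an acyl-CoA synthetase, kept its call among the left-out fits where 5-FU replicate 1 was the one omitted (log2FC -0.59, adjusted *P* = 0.0424). The sodium channel genes *Scnn1a* and *Scnn1b* rose by 2.14 and 1.58 among 23 ion and water transport genes, of which 6 rose and 1 fell (10 and 2 on the 6 LGR5+ libraries alone and without the 2 LGR5- libraries numbered 3, median 0.27, or 4 higher and 1 lower of 21 in both groups, median 0.20). *Hba-a1*, an alpha-globin gene, had 0.462, 0.184 and 0.478 CPM in untreated and 36.9, 33.5 and 52.2 CPM in treated libraries (log2FC 6.73, SE 0.45, adjusted *P* = 1.15e-06). Of the 8 erythroid markers, 3 had no read in any LGR5+ library, the beta-globin gene *Hbb-bt* included, and no other was called. The alpha-globin copies are near-identical, so which copy gave these reads is uncertain.

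In signalling, of 19 AP-1 and immediate early genes, 12 rose and 0 fell (median log2FC 0.91, or 10 higher and 0 lower of 16 in both groups, median 0.89), such as *Btg2*, an antiproliferative p53 target, with 131, 141 and 122 CPM before and 459.9, 542 and 651 CPM after (log2FC 2.07, SE 0.21, adjusted *P* = 1.51e-05), and *Junb* and *Klf6*, with log2FC of 1.41 and 1.85. *Ier3*, the member with most reads, had log2FC -0.40, adjusted *P* = 0.225. *Dusp1*, a phosphatase that ends MAP kinase signals, had 6.81, 8.79 and 9.26 CPM before and 35.98, 92.3 and 73.3 CPM after (log2FC 3.02, SE 0.36, adjusted *P* = 6.26e-05), whereas *Lrig1*, an inhibitor of ErbB receptors, and *Etv4*, an ETS factor induced by ERK, fell by 1.37 and 1.24 on the log2 scale. In all, 5 of 20 MAP kinase feedback genes rose and 2 fell (median 0.22, or 3 higher and 1 lower of 16 in both groups, median 0.15), and 3 rose without 5-FU replicate 2 or without untreated replicate 3. On the 6 LGR5+ libraries alone 8 rose and 4 fell, and without the 2 LGR5- libraries numbered 3 it was 9 and 4. The EGF family ligand *Areg* (amphiregulin) had 7.28, 8.48 and 7.59 CPM before and 47.2, 56.3 and 72.03 CPM after (log2FC 2.91, SE 0.24, adjusted *P* = 3.43e-06), and with *Egfr* and *Btc* it made 3 higher and 0 lower of 7 (median 0.44). All 3 reached 10 CPM after 5-FU alone, so none of them is among the 4 members in both groups (median 0.09). *Btc* was not called without 5-FU replicate 1, 5-FU replicate 3 or untreated replicate 3.

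Of 33 Wnt pathway genes, 7 rose and 2 fell (median log2FC -0.11, -0.03 without untreated replicate 1 and -0.20 under scaling by library size alone, or 4 higher and 2 lower of 27 in both groups, median -0.11). The rises were the ligand genes *Wnt4*, *Wnt6*, *Wnt7b* and *Wnt10a*, *Wls*, which escorts Wnt proteins to the cell surface, the receptor gene *Fzd1* and *Ascl2*. *Wnt4*, a secreted ligand, had 2.31, 3.50 and 3.35 CPM before and 17.9, 36.6 and 36.1 CPM after (log2FC 3.30, SE 0.35, adjusted *P* = 2.14e-05), and *Wnt7b* and *Wnt10a* went from 30.4 ± 3.17 and 84.2 ± 18.6 to 104 ± 22.7 and 258 ± 72.4 CPM. *Tcf7*, a transcription factor of the pathway, and the receptor gene *Fzd7* fell (-0.74 and -0.71), and *Nkd1*, an inhibitor and the member with most reads, had log2FC -0.78, adjusted *P* = 0.0918. The number that rose was 3 without 5-FU replicate 2, 5-FU replicate 3 or untreated replicate 2, and 4 without untreated replicate 3. Neither fall was called without any of these first 3 libraries, nor *Tcf7* without untreated replicate 1 or 3, while 7 fell on the 6 LGR5+ libraries alone or without the 2 LGR5- libraries numbered 3, and 5 by DESeq2. In the Notch list 4 rose and 0 fell of 15 (median 0.37, and 0.67 without untreated replicate 2, or 3 higher and 0 lower of 12 in both groups, median 0.24), the receptor *Notch1*, at 16.2, 26.5 and 13.8 CPM before and 65.04, 86.4 and 83.02 CPM after (log2FC 2.05, SE 0.24, adjusted *P* = 4.77e-05), the ligand *Jag1* and the factor *Hes6* among them. In the TGF beta and activin list 8 rose and 1 fell of 26 (median 0.38, or 5 higher and 1 lower of 23 in both groups, median 0.26). *Fst*, follistatin, which binds activin, had 4.10, 4.12 and 3.70 CPM before and 34.2, 48.5 and 50.9 CPM after (log2FC 3.48, SE 0.23, adjusted *P* = 1.15e-06), and *Pmepa1*, a feedback inhibitor, and *Thbs1*, thrombospondin, reached 197 ± 30.9 and 79.6 ± 9.71 CPM. *Bmp7*, a BMP ligand, fell (log2FC -0.75, adjusted *P* = 0.0213), a call absent without 5-FU replicate 2 or 3 or untreated replicate 2 or 3. Ephrin and semaphorin genes gave 11 higher and 2 lower of 30 (5 lower on the 6 LGR5+ libraries alone or without the 2 LGR5- libraries numbered 3, median 0.28, or 7 higher and 0 lower of 22 in both groups, median 0.21), and the number that fell was 1 without 5-FU replicate 2 and 0 without 5-FU replicate 3. *Robo3*, an axon guidance receptor, had 0.404, 0.860 and 0.239 CPM before and 22.5, 22.2 and 24.4 CPM after (log2FC 5.51, SE 0.33, adjusted *P* = 4.99e-07). The number that rose in this list was 7 without 5-FU replicate 2 or untreated replicate 3.

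Of 27 NF-kB feedback and cytokine genes, 12 rose and 0 fell (median log2FC 0.81, or 10 higher and 0 lower of 23 in both groups, median 0.80). *Cxcl16*, a membrane-bound chemokine, had 32.6, 24.3 and 26.9 CPM before and 107, 125 and 152 CPM after (log2FC 2.19, SE 0.20, adjusted *P* = 7.39e-06), and the adhesion molecule *Icam1* and the cytokine *Lif* rose by 2.07 and 1.81. Leukocyte markers summed to 2.46 to 2.87 CPM in untreated and 2.64 to 5.79 CPM in treated libraries. Interferon response and antigen presentation genes gave 8 higher and 0 lower of 32 (median 0.56, or 8 higher and 0 lower of 28 in both groups, median 0.56), *Irf1*, *H2-T23* and *Cd74* included, with log2FC of 0.99, 1.22 and 1.53. The median of the 32 was 0.01 without 5-FU replicate 1, 1.01 without untreated replicate 2 and 0.36 without untreated replicate 3. The number that rose was 5 without 5-FU replicate 1 or untreated replicate 1 and 4 without 5-FU replicate 3 or untreated replicate 3. *H2-D1*, a class I molecule and the member with most reads, had 1695, 1688 and 1179 CPM before and 3531, 2042 and 2939 CPM after (log2FC 0.90, adjusted *P* = 0.101). Prostaglandin genes had 5 higher and 0 lower of 11 (median 0.53, or 4 higher and 0 lower of 9 in both groups, median 0.53). *Ptgs2* (cyclooxygenase 2), the inducible enzyme, had 0.751, 2.21 and 1.79 CPM before and 7.93, 15.6 and 18.3 CPM after (log2FC 3.13, SE 0.51, adjusted *P* = 0.000757), and *Ptgs1*, the constitutive one, 319.7 ± 33.4 and 635 ± 107 CPM (log2FC 0.99, adjusted *P* = 0.0056). Without untreated replicate 1, 3 of them rose. Among clock genes, 2 rose and 1 fell of 15 (median 0.04, -0.04 on scaling by library size alone and -0.14 without untreated replicate 1, or 2 higher and 0 lower of 10 in both groups, median 0.06), shares near those of all well-measured genes, and 1 rose without 5-FU replicate 2 or 3 or untreated replicate 2 or 3.

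Of 26 genes used as stem or progenitor markers, 11 rose and 2 fell (median log2FC 0.47, or 8 higher and 2 lower of 22 in both groups, median 0.45). The fetal and injury-associated gene *Ly6a* (SCA-1) and the hyaluronan receptor *Cd44* rose by 3.15 and 1.66 on the log2 scale, and *Procr*, the protein C receptor, also rose (log2FC 2.60, adjusted *P* = 3.43e-06). *Prom1* (CD133) fell from 29.1, 29.9 and 33.6 to 18.05, 14.4 and 14.7 CPM (log2FC -0.98, SE 0.18, adjusted *P* = 0.00208), beside *Lrig1*. *Ascl2*, a Wnt-dependent factor of intestinal stem cells, rose by 0.72 on the log2 scale, a call absent without 5-FU replicate 2 or 3 or untreated replicate 1 or 2, while *Lgr5* had a log2FC of 0.07. Of 25 epithelial transcription factor genes, 6 rose and 3 fell (median 0.18). Of these 6, 4 reached 10 CPM after 5-FU alone, and of the 21 members in both groups 2 rose and 3 fell (median 0.11). *Grhl3*, *Klf4* and *Ovol1*, factors of the skin barrier, rose, *Grhl3* from 15.7, 11.2 and 14.3 to 45.4, 63.3 and 56.7 CPM (log2FC 2.0, SE 0.22, adjusted *P* = 3.36e-05), and *Rbpjl*, *Elf5* and *Prox1* fell, with log2FC of -1.59, -1.24 and -0.80. *Prox1* was not called without 5-FU replicate 2 or 3 or untreated replicate 2. *Elf3*, the member with most reads, had log2FC 0.18, adjusted *P* = 0.688.

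**Figure D4:**
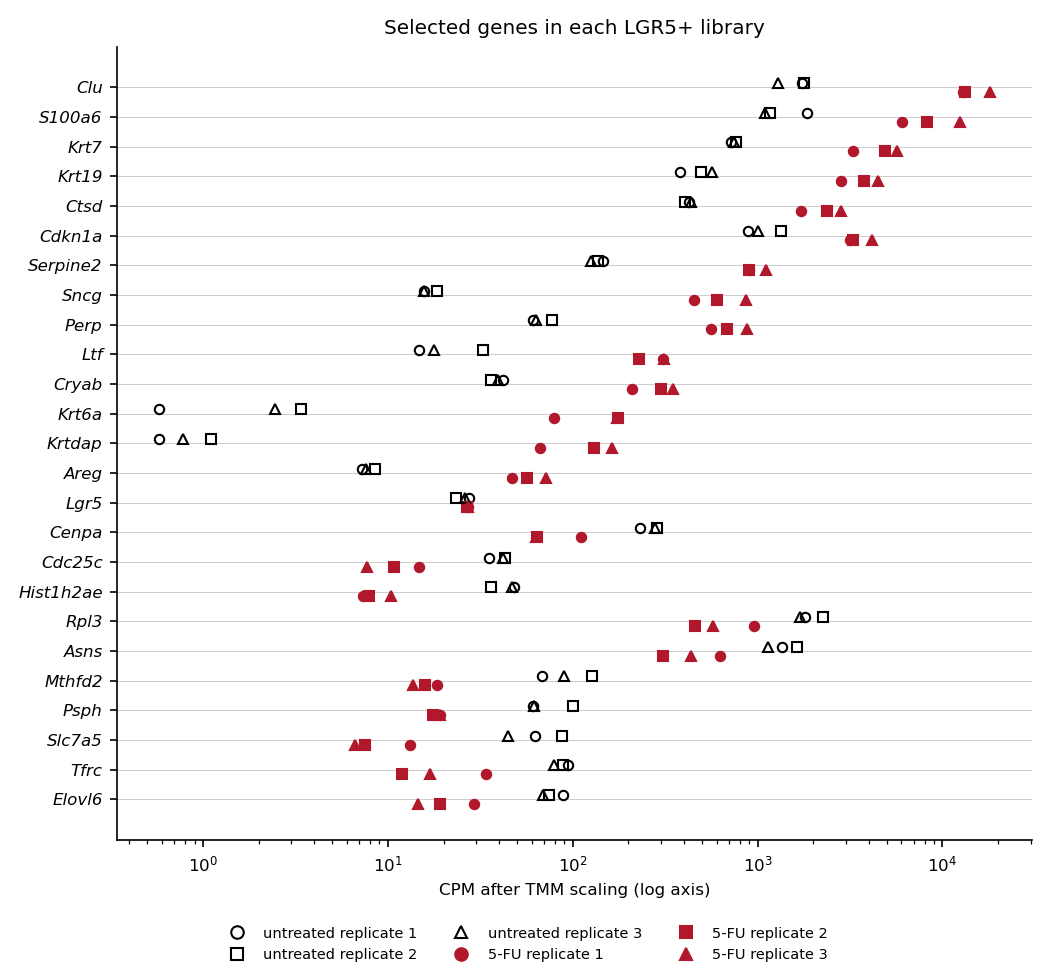
CPM after TMM scaling (log axis) of 25 named genes in each of the 3 untreated (open) and 3 5-FU-treated (red) LGR5+ libraries. Apart from *Lgr5*, where the groups overlap, all treated libraries lie on one side of all untreated ones, and in *Cenpa*, *Cdc25c* and *Tfrc* 5-FU replicate 1 (filled circle) is the treated library nearest to the untreated ones.

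Several of the largest changes belong to no list. *Sncg*, which encodes gamma-synuclein, had 15.8, 18.4 and 15.8 CPM before and 456, 602 and 870.0 CPM after (log2FC 5.27, SE 0.37, adjusted *P* = 1.69e-06). Among the falls, *Tcerg1l* went from 13.97, 17.5 and 21.2 to 2.30, 2.97 and 1.93 CPM (log2FC -2.86, SE 0.27, adjusted *P* = 8.67e-06), and *Stc2* (stanniocalcin 2), a secreted glycoprotein, from 31.4, 72.1 and 42.4 to 13.8, 3.85 and 5.09 CPM (log2FC -2.68, SE 0.50, adjusted *P* = 0.00251). *Fut1*, a fucosyltransferase of blood group synthesis, had 10.7, 16.7 and 10.7 CPM before and 2.75, 2.37 and 1.70 CPM after (log2FC -2.48, SE 0.31, adjusted *P* = 0.0001). The groups of each of these genes were apart. *Igfbp4*, which binds insulin-like growth factors, went from 1587 ± 236 to 674 ± 246 CPM (log2FC -1.24, adjusted *P* = 0.0336), and it was called in 1 of the 6 fits with a library left out.

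The responses of the LGR5+ and LGR5- cells, which share no library, were tested for a difference. These are the populations of the GFP sort, which *Lgr5* RNA itself did not set apart. No well-measured gene differed at an adjusted *P* under 0.05 (0 of 9517 by edgeR, 138 or 1.45% at an unadjusted *P* under 0.05), and DESeq2 gave 0 of 16157 genes tested, with 286 unadjusted against 254 (1.57%) by edgeR. Of the 1162 genes that rose in LGR5+ cells, 1160 had the same sign in LGR5- cells and 795 (68.4%) were called there, against 9.77% of all well-measured genes. Of the 758 that fell, 751 had the same sign and 579 (76.4%) were called, against 9.62%. The median log2FC was 1.03 in LGR5+ and 0.85 in LGR5- cells for the higher genes and -1.06 and -1.01 for the lower. These medians favor LGR5+ cells by construction, since the genes were chosen there. The smallest *P* for a difference came from genes such as *Lypd3*, a squamous surface protein (3.05 in LGR5+ and 1.64 in LGR5- cells), *Cav2*, caveolin 2 (1.47 and 0.43), *Adgrg1* (1.11 and 0.29) and *Lyz2*, a lysozyme of macrophages and alveolar cells (1.79 and 3.56), and no adjusted *P* passed. The unadjusted count was 1775 without untreated LGR5- replicate 3 and 1255 without both LGR5- libraries numbered 3, again with 0 genes after adjustment.

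**Figure D5:**
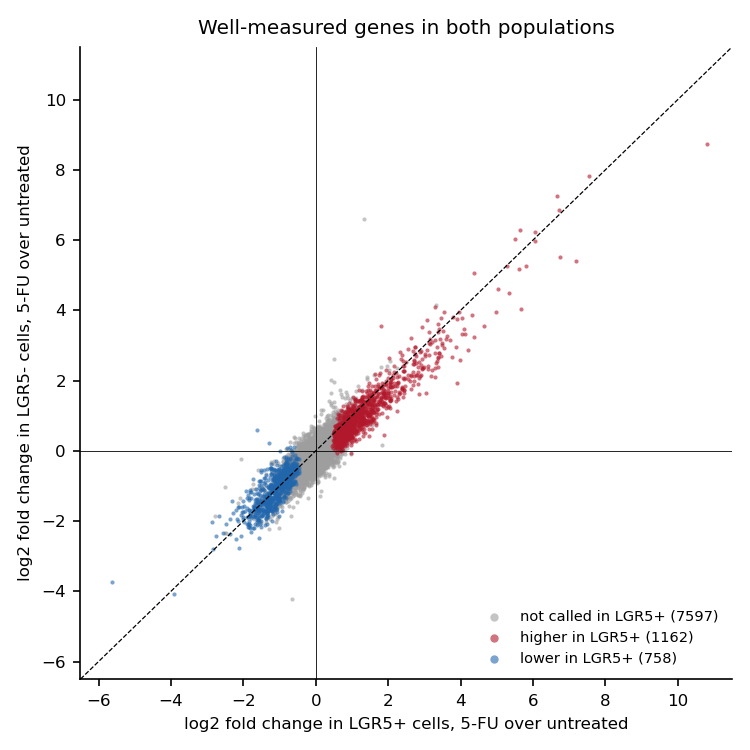
Log2FC of 5-FU-treated over untreated cells for the 9517 well-measured genes in LGR5+ (x axis) and LGR5- cells (y axis), colored by the call in LGR5+ cells. The genes that were higher (red, 1162) and lower (blue, 758) in LGR5+ cells lie around the dashed line of equal change.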

How the data were processed

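RNA of sorted LGR5+ and LGR5- organoid cells was amplified with a SMARTer (SMART-Seq v4) kit and sequenced. The authors deposited 1 table of raw read counts per gene for all 12 libraries, without normalization. The submitters' processing notes name HISAT, HISAT2, TopHat2 and HTSeq and the build mm8, without saying which made the table, and whether counting used strand is not given in the sources used here. Of 47069 Ensembl identifiers, 581 had no symbol in GENCODE M21. That annotation and the RefSeq promoter table are of GRCm38, so no coordinate describes the counting.

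Counts were filtered with filterByExpr (16157 genes kept), scaled by TMM and fitted with edgeR 4.0.16 (glmQLFit, robust, 4 group means over 12 libraries, R 4.3.3, limma 3.58.1). Contrasts were tested by the quasi-likelihood test with Benjamini-Hochberg adjustment over all genes tested and called at an adjusted *P* under 0.05. The SE of a log2FC is its size divided by the root of its F statistic. CPM are after TMM scaling. The biological coefficient of variation was 26.6%. The procedure was tested on simulated data. A count of 0 allows 3 reads, and intervals are 95% exact.

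The members and the 50 gene lists, written from general knowledge, were chosen with earlier results of these data known, as were 9 marker lists. No set test was run. Genes were named by rule: the 15 highest and 15 lowest log2FC among called, well-measured genes whose groups did not overlap, without the 269 symbols of the study's pathway sheet, the 10 largest rises and 10 largest falls of CPM, up to 3 called genes per list and direction with the smallest *P* and the member with most reads, the 5 with smallest *P* per direction for the difference between responses, *Lgr5* and the markers. Some genes that this rule names are not reported here. The following were named after their values were seen: *Ect2*, *Ccnb2*, *Top2a*, *Mki67*, *Mdm2*, *Trib3*, *Atf4*, *Phgdh*, *Ddit3*, *Ppp1r15a*, *Adm*, *Ndrg1*, *Vegfa*, *Pfkfb4*, *Scgb1a1*, *Krt4*, *Krt10*, *Krt15*, *Krt17*, *Tgm1*, *Lcn2*, *Mmp7*, *Plaur*, *Anxa4*, *Anxa6*, *Hist1h2bc*, *Mcl1*, *Bcl2l1*, *Ly6a*, *Cd44*, *Ascl2*, *Wnt6*, *Wls* and *Fzd1*. Alternatives were DESeq2 1.42.0, RLE or library-size scaling, other filters, the 6 LGR5+ libraries alone, a replicate block and leaving out libraries. Libraries of a group were not copies of each other (chi-square per degree of freedom of at least 21.8 between LGR5+ libraries of a group).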

Additional observations from a re-analysis of the deposited data

How the results depend on the processing

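Without the 2 LGR5- libraries numbered 3, 4448 genes were called (2444 higher, 2004 lower), of which 3219 were well measured (1812 and 1407), and on the 6 LGR5+ libraries alone 4045 (1839 lower) and 2985 (1306 lower), against 2590 and 1920. The thresholds of the study gave 481 well-measured genes (322 higher, 159 lower). Leaving out 1 LGR5+ library gave 1373 to 2488 genes (1003 to 1373 higher, 370 to 1115 lower). Of these, 1046 to 1857 were well measured (756 to 1038 and 290 to 819). The distinct well-measured genes of any list that were called numbered 340 to 533, against 517. The low ends came without 5-FU replicate 3. DESeq2 called 2399 well-measured genes, all 1920 included, the filter of 10 reads in every library 1993, RLE scaling 1924, scaling by library size alone 1802 (918 higher, 884 lower) and no filter 1755. Of the 210 named genes called, 0 changed sign, and 46 lost their call without 5-FU replicate 3, 45 without 5-FU replicate 2, 31, 30 and 26 without untreated replicates 3, 2 and 1, 14 without a filter, 7 without 5-FU replicate 1 and 4 on scaling by library size alone. The cause of these shifts was not tested. Same-numbered untreated and treated LGR5+ libraries did not go together (correlation of deviations -0.09, -0.25 and 0.02 for numbers 1 to 3 over 9098 genes). Pairing with or among the LGR5- libraries was not checked. A fit with the replicate number as a block called 2196 well-measured genes (1252 higher, 944 lower), 585 distinct list genes and 208 of the 210 named genes. The DNA replication genes that fell numbered 38 with that block, against 22. Over the 50 gene lists, the number of higher members moved up by over 1.5 times in 14 lists and of lower members in 21 without the 2 LGR5- libraries numbered 3, in 13 and 19 on the 6 LGR5+ libraries alone and in 5 and 10 by DESeq2, and down in none. Leaving out 1 LGR5+ library moved the number higher down by over 1.5 times in 3 to 14 lists and the number lower in 3 to 21. Of the 23 lists whose median log2FC lay within 0.4 of 0, 18 had a median that changed sign or moved by over 1.5 times in at least 1 alternative, against 3 of the other 27. The difference between responses gave 0 genes in every fit run, with 158 to 1775 at an unadjusted *P* under 0.05. Genes under 10 CPM had fewer reads, and 10.1% of these 6640 were called, against 20.2% of the well-measured.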
